A study of Mus musculus with 6 samples.

Results

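The genes described here make, modify, break down and sense ceramide and its relatives, the sphingolipids. They were chosen by name, as 45 genes of ceramide and sphingolipid metabolism, and 44 of them were found among the 23934 genes of the deposited table. These genes, and the lists set beside them, were chosen with earlier results of these data known. Alox12b is not analysed here. RNA from sorted mouse skin cells was sequenced at day 50 in 3 controls (libraries S2, S3 and S4) and 3 Zfp750 knockouts (S5, S6 and S7). Zfp750 encodes a zinc finger protein that acts in epidermal differentiation.

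Per the labels, every sample carried 1 copy of a tamoxifen-activated Cre recombinase driven by Lrig1, a gene of the upper hair follicle, and received 4-hydroxytamoxifen from day 4 to 7 or day 5 to 8. The allele is written Lrig1-CreERT2 for 2 control and 2 knockout samples and Lrig1-CreER for 1 sample of each group. Knockouts were ZNF750 fl/fl and Rosa26 -/-. Controls were ZNF750 wt/fl with Rosa26 -/- in 2 samples and wt/wt with Rosa26 +/- in 1. The sorted cells came from mice expressing tdTomato, and the labels do not give the gate. Column names of the table show the group and match no sample title, so a library cannot be tied to its own genotype.

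Values are the authors' normalized counts, which are not corrected for gene length, and are listed below in the order S2, S3, S4 for controls and S5, S6, S7 for knockouts. The libraries held 15310183 to 20705371 estimated reads. Zfp750 itself had control values of 41.9, 3.75 and 314 and knockout values of 4.90, 1.82 and 7.16, so control S3 lay within the knockout range and its label is not checked by this gene. The 9 fibroblast markers took 19.0% to 34.9% of the control totals and 6.28% to 7.84% of the knockout totals, and the 10 basal keratinocyte markers 0.0226% to 0.219% and 0.0621% to 0.191%. The fibroblast share was carried by Col1a1, Col1a2 and Col3a1, lower in every knockout, while Pdgfra and Pdgfrb were higher in every knockout and Lum, Dcn, Dpt and Fbn1 overlapped. Of the basal keratinocyte markers, Dst had the highest mean and varied little, at 7225, 5049 and 8974 against 6602, 6381 and 6842. Krt5 was at 2503, 62.5 and 11805 against 1164, 885 and 8559, and Krt14 at 1111, 17.5 and 4560 against 1039, 1014 and 8235. Every marker of this list except Trp63 was lowest in S3. In such bulk samples, fewer cells of a type and less RNA per cell cannot be told apart. The labels do not state that libraries came from different animals, so the p-values reflect the spread among these samples, part of which may be technical.

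Ceramide is built in the endoplasmic reticulum from serine and palmitoyl-CoA by way of a sphingoid base, to which a ceramide synthase attaches a fatty acid. It is then converted to glucosylceramide or sphingomyelin, is phosphorylated, or is cleaved to sphingosine, the source of the signalling lipid sphingosine 1-phosphate. In the epidermis, ceramides with ultra-long fatty acids form the water barrier, and sebaceous glands also make very long chain lipids.

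Calls lay at a few steps of the pathway, while some genes of other steps did not overlap between the groups but were not called. The ultra-long chain elongase gene Elovl4, the fatty acid hydroxylase gene Fa2h, the glucosylceramide synthase gene Ugcg, the receptor gene S1pr3 and the sphingoid base reductase gene Kdsr rose in the knockouts. The sphingomyelin synthase gene Sgms2 and the ceramide kinase gene Cerk fell. Of 5 tested ceramide synthases and 4 tested barrier genes of the outer epidermis, 0 were called. Of the 44 genes, 41 were tested with limma on log2(value + 9.15), with Benjamini-Hochberg adjustment over the 15935 genes above a filter on low values. At an adjusted p under 0.05, 5 of the 41 rose and 2 fell (17.1%), where 6.71% of all tested genes were called, 4.12% higher and 2.59% lower. At that share, a count of 0 among the few genes of a role does not show that the role was unchanged. The groups did not overlap for 16 of the 41 (39.0%), 13 higher and 3 lower, against 28.8% of all tested genes (15.7% higher and 13.1% lower). An unadjusted p under 0.05 was reached by 15 of the 41 genes and by 23.2% of all tested genes. Acer1 and Cyp4f39 are in the last 2 counts and passed the filter through the knockout libraries alone, so their being tested required a difference. The shares over all genes were not freed of such genes either. The median log2 fold change was 0.23 for the 41 genes and 0.01 for all. As the genes were chosen with earlier results known, their shares may not be independent of these data.

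These counts depended on single libraries. With 1 library left out, 1 to 6 genes rose and 0 to 2 fell. The number that rose was 2 without control S2, 3 without control S3 and 1 without knockout S6. The number that fell was 1 without S2 or S5 and 0 without S3, S6 or S7. Rescaling to a common library total moved the median log2 fold change of all genes by 0.30 and raised the share of rises among all calls from 61.4% to 78.9%. All changes are therefore relative to the scaling of the deposited table.

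**Figure D1:**
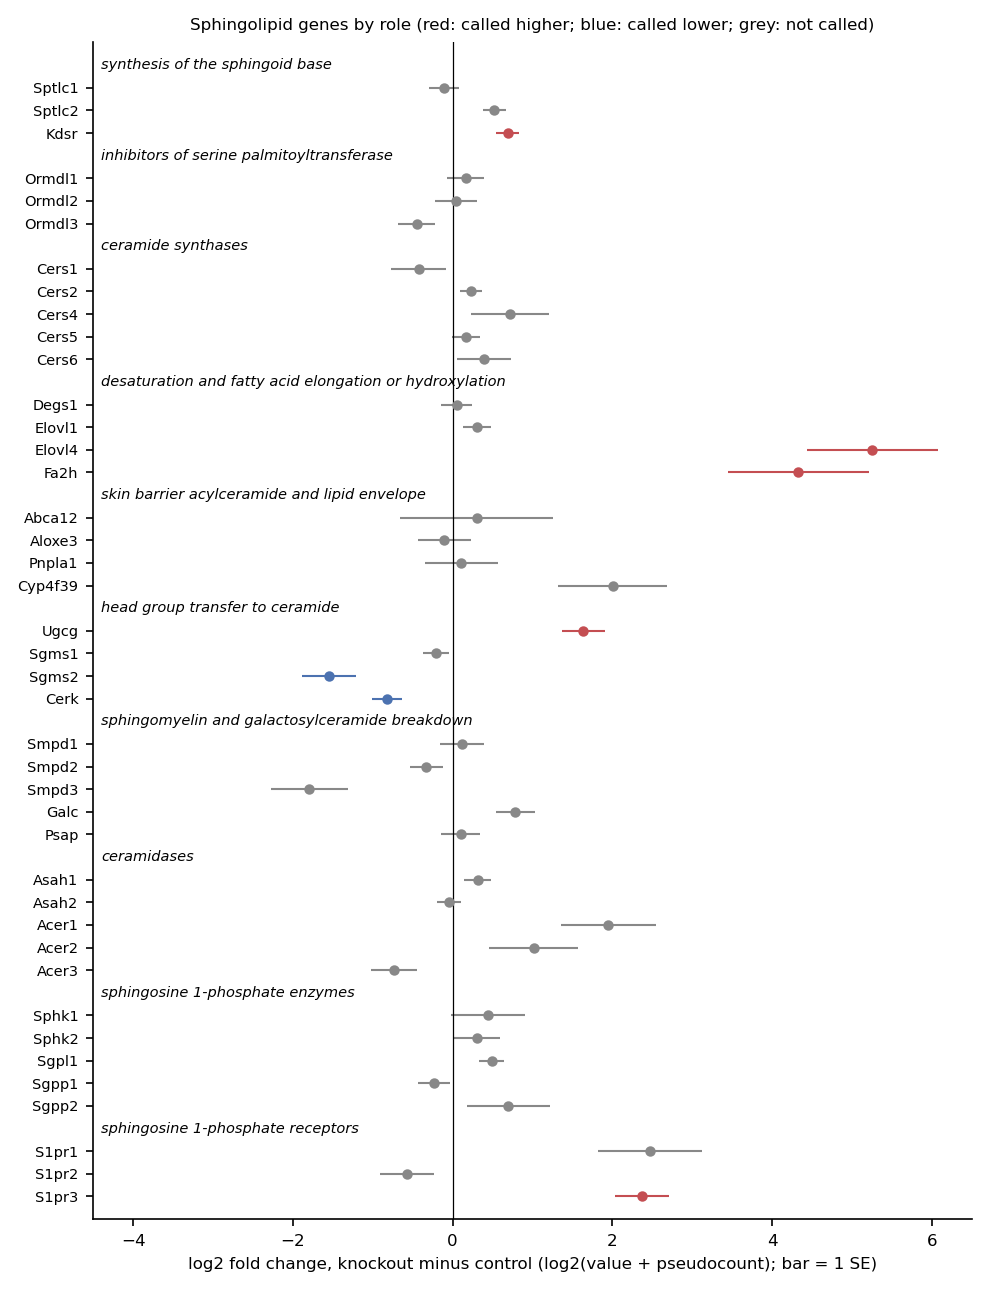
Log2 fold change (knockout minus control, horizontal axis) of the 41 tested sphingolipid genes, grouped by role, with bars of 1 SE from limma. The 5 genes that rose are red, the 2 that fell are blue and the others grey, with Elovl4 and Fa2h farthest to the right.

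The widest differences were in fatty acid elongation and hydroxylation. Elovl4 (ENSMUSG00000032262; chr9:83778692-83806277, minus strand, GRCm38) encodes the elongase that makes the ultra-long acyl chains of skin ceramides. Its control values were 206, 21.2 and 74.0 and its knockout values 1487, 2335 and 8541. Every knockout library was above every control library, and S7 was the highest. The log2 fold change was 5.25 ± 0.82 (SE; limma adjusted p = 0.0124). The means were 4121 ± 3852 against 100.4 ± 95.1 (SD of 3 libraries each). Below, log2 fold changes ± SE and limma's adjusted p stand in parentheses after the values. The call was missed without S6 (adjusted p = 0.0534). Fa2h (ENSMUSG00000033579; chr8:111345135-111393824, minus strand, GRCm38) encodes the enzyme that places a 2-hydroxyl group on the fatty acids of ceramide. Its values were 57.2, 7.49 and 66.4 in controls against 344, 582 and 3197, again with S7 highest and no overlap (4.32 ± 0.88, adjusted p = 0.0313). Leaving out S7, S6, S3 or S2 ended the call, at adjusted p-values of 0.0535 to 0.0938.

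Elovl1, which makes the saturated very long chains of many tissues, had values of 470.2, 568 and 466 in controls against 686, 527 and 659.5 (0.31 ± 0.17, adjusted p = 0.331). Its groups overlapped. Per kilobase of exon, Elovl4 held 28.3%, 3.26% and 12.5% of the Elovl1 and Elovl4 sum in controls, against 66.1%, 80.0% and 92.1%. Degs1, the desaturase of the last step to ceramide, ranged over 1328 to 1977 in controls and 1561 to 1874 in knockouts (0.05 ± 0.19, adjusted p = 0.906). Degs2, which makes phytoceramides, stayed below the filter at 6.53 to 13.0 and 7.98 to 28.9.

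Part of the sebocyte marker list was higher in every knockout, as were Elovl4 and Fa2h. The 9 sebocyte markers summed to 4049.6, 2946 and 4047 in controls against 5334, 5243 and 11785. None was at 0 in all controls, and 5 of the 9 did not overlap, against 28.8% of all tested genes. Of these 5, 2 (Elovl3 among them) were under the filter in every control, and passed it through the knockouts alone. Awat2, Dgat2, Fabp5 and Mgst1 overlapped between the groups. In S5, Awat2 (1.96) and Dgat2 (71.6) lay below every control. The fat cell, mast cell and endothelial sums were also higher in every knockout than in any control. The part of sebocytes or of these other cells in the result was not tested. Elovl4 and Fa2h were both called with the basal keratinocyte level as a covariate. The sums of that list overlapped between groups (5836 to 35428 in controls, 9719 to 30807 in knockouts). No fit adjusted for sebocyte markers, so this setting cannot show their part. Elovl4 and Fa2h were also called with S3 and S7 left out together, a setting chosen after the data were seen.

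**Figure D2:**
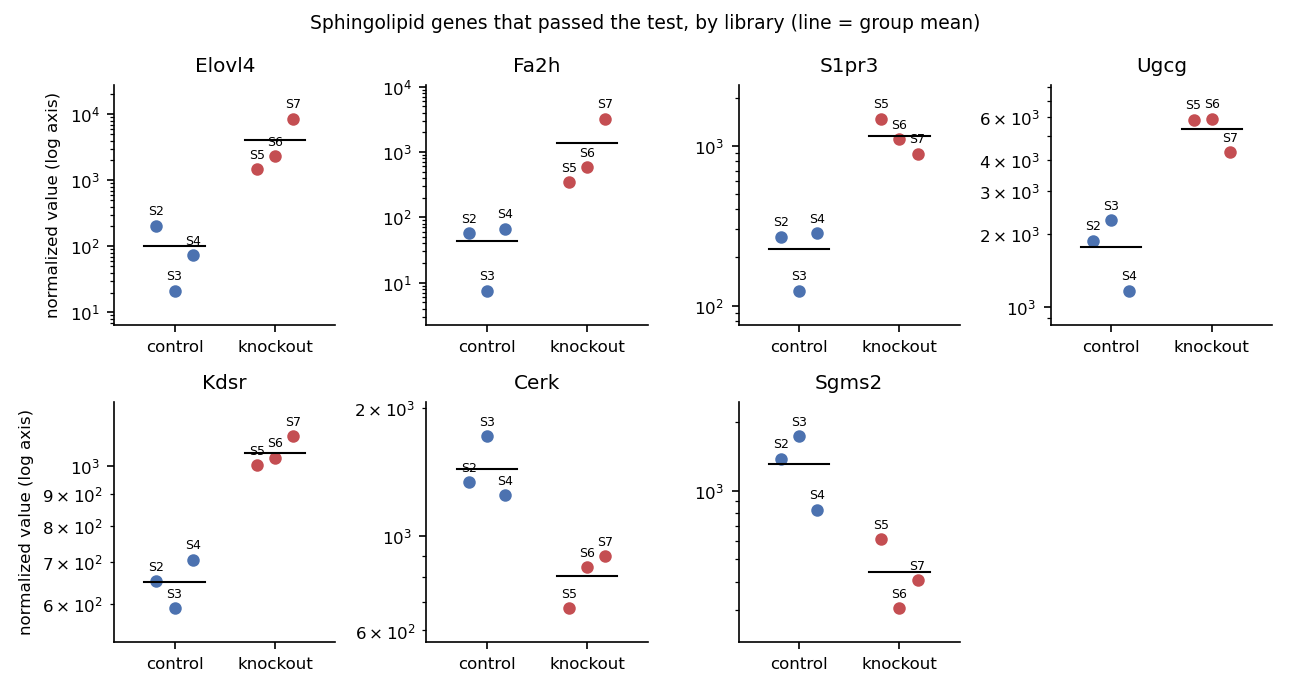
Normalized values (log axis) of the 7 sphingolipid genes that passed the test, 1 point per library with its name, blue for control and red for knockout, and a line at the group mean. The groups overlap in none of the panels, and the knockout points spread 5.75-fold for Elovl4 and 9.29-fold for Fa2h but 1.37-fold for Ugcg and 1.11-fold for Kdsr.

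Where ceramide receives its head group, the gene of the glucosylceramide branch rose and genes of the sphingomyelin and ceramide 1-phosphate branches fell. Ugcg (ENSMUSG00000028381; chr4:59189257-59222833, plus strand, GRCm38) encodes glucosylceramide synthase, the entry to most glycosphingolipids. It had control values of 1868, 2264 and 1167 and knockout values of 5848, 5899 and 4318. All knockouts lay above all controls (1.63 ± 0.27, adjusted p = 0.0150), and the call was missed without S2 (0.0616) or S6 (0.0726). Sgms2 (ENSMUSG00000050931; chr3:131318985-131491411, minus strand, GRCm38), a sphingomyelin synthase of the plasma membrane, went from 1381, 1737 and 827 in controls to 613, 306 and 407 (-1.55 ± 0.34, adjusted p = 0.0379). Leaving out S7, S6, S3 or S2 ended the call, at adjusted p-values of 0.0988 to 0.141, as did a fit without the intensity trend (0.0610). Sgms1, the Golgi enzyme, overlapped between groups, at 798, 756 and 606 against 592, 582 and 683 (-0.21 ± 0.17, adjusted p = 0.498).

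Cerk (ENSMUSG00000035891; chr15:86139128-86186141, minus strand, GRCm38), which phosphorylates ceramide, had control values of 1342, 1721 and 1249 and knockout values of 678, 847 and 898. All knockouts lay below all controls (-0.82 ± 0.19, adjusted p = 0.0439). The call was missed without any single library except S4 (adjusted p = 0.0816 to 0.128), without the intensity trend (0.0769) and with the libraries at a common total (0.148). The ratio of Ugcg to Sgms2 within a library does not depend on the scaling of that library. It was 1.35, 1.30 and 1.41 in controls against 9.54, 19.3 and 10.6. It was chosen after its values were seen and has no test. The fibroblast markers also separated the groups, with sums of 3074813 to 9034315 in controls and 969396 to 1311686 in knockouts. Of these 9 markers 2 were called, Pdgfra and Pdgfrb, both higher, and the collagens were not. Their part in these differences was not tested.

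Several genes for the steps that extend glucosylceramide rose as well. On the list of other sphingolipid genes, 5 of 6 tested genes of glycosphingolipid synthesis rose and 0 fell, with a median log2 fold change of 1.49, where 4.12% of all tested genes rose. B4galt5, a lactosylceramide synthase, had control values of 534, 497 and 525 and knockout values of 1439.5, 1419 and 1347. Both groups were narrow, and the gene was called in every alternative (1.42 ± 0.13, adjusted p = 0.00207). Its relative B4galt6 was at 69.9, 64.9 and 129.5 against 232, 209 and 318 (1.47 ± 0.30, adjusted p = 0.0325), a call missed without any single library except S4 (0.0664 to 0.126). A4galt, which makes globotriaosylceramide, was at 227, 124 and 193 against 755, 796 and 924. It too was called in every alternative (2.17 ± 0.24, adjusted p = 0.00368).

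On the ganglioside arm, St3gal5, the GM3 synthase gene, was at 52.1, 55.0 and 68.1 against 136, 184 and 243 (1.52 ± 0.27, adjusted p = 0.0190), a call missed without S2, S3, S6 or S7 (0.0543 to 0.0828). B4galnt1, the GM2 and GD2 synthase gene, was at 129.6, 77.7 and 258 against 592, 597 and 1049 (2.30 ± 0.42, adjusted p = 0.0224), a call missed without S2, S6 or S7 (0.0705 to 0.0935). For both, all knockouts lay above all controls. In the reference annotation 20.7% of the exon bases of B4galnt1 overlap Slc26a10 on the other strand, and no source used here says whether reads were counted by strand. St8sia1, the GD3 synthase gene, was not called, at 7.62, 2.498 and 48.8 against 1.96, 21.9 and 58.9 (0.35 ± 0.81, adjusted p = 0.836). Ugt8a and Gal3st1, which make galactosylceramide and sulfatide, stayed below the filter.

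**Figure D3:**
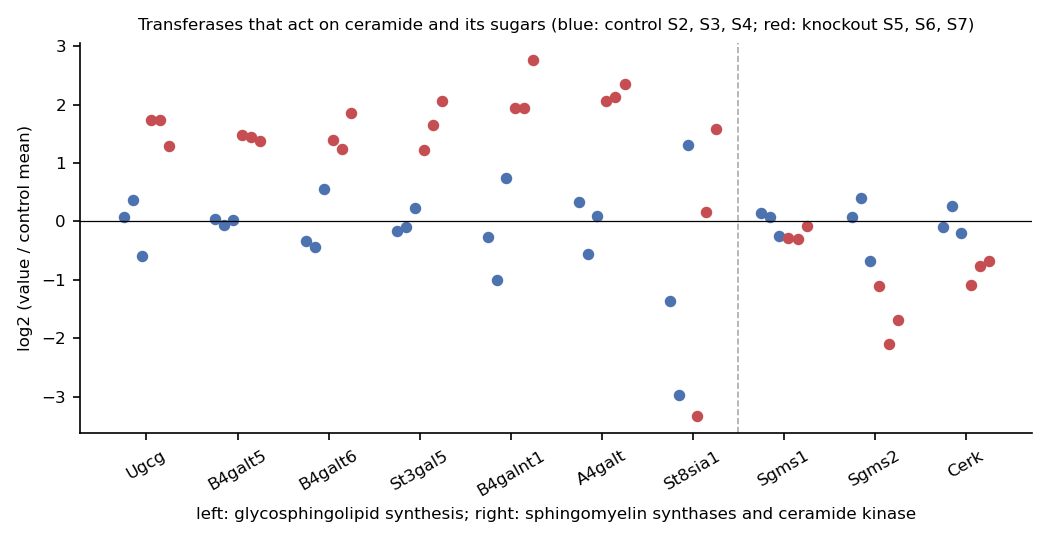
Log2 of each value over the control mean of its gene, 1 point per library (blue control, red knockout), for 7 genes of glycosphingolipid synthesis left of the dashed line and both sphingomyelin synthases and ceramide kinase right of it. Knockout points lie above all control points for Ugcg, B4galt5, B4galt6, St3gal5, B4galnt1 and A4galt, below them for Sgms2 and Cerk, and overlap them for St8sia1 and Sgms1.

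Promoter sequences are shown to let start regions be compared, for the 4 sphingolipid genes that rose and had 1 RefSeq window (Elovl4, Ugcg, Kdsr, S1pr3), and for B4galt5 and A4galt, called in every alternative. Each is the 250 bases before the RefSeq start (GRCm38.p6), 5′ to 3′ on the strand of the gene: chr9:83806306-83806555, minus strand, for Elovl4, chr4:59189300-59189549, plus strand, for Ugcg, chr1:106759743-106759992, minus strand, for Kdsr, chr2:167349179-167349428, minus strand, for B4galt5, chr15:83251730-83251979, minus strand, for A4galt and chr13:51408368-51408617, plus strand, for S1pr3. Capitals mark matches on either strand to an AP-1 motif (TGANTCA), an AP-2 motif (GCCNNNGGC) or a motif reported for ZNF750 (CCNNAGGC), and no matches overlap here.
Elovl4: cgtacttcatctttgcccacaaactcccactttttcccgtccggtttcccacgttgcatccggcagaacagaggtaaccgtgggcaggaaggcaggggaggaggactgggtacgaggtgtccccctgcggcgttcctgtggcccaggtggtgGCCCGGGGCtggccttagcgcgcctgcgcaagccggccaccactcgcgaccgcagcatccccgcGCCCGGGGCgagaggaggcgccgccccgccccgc
Ugcg: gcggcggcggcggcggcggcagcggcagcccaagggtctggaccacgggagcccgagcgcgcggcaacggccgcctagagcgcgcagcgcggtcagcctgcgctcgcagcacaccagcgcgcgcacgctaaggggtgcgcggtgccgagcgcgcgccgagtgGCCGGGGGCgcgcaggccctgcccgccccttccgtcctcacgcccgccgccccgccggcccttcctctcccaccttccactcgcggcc
Kdsr: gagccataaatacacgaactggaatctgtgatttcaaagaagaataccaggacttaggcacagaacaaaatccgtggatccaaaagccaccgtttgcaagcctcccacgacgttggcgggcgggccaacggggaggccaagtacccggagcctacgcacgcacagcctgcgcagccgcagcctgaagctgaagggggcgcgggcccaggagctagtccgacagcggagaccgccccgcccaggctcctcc
B4galt5: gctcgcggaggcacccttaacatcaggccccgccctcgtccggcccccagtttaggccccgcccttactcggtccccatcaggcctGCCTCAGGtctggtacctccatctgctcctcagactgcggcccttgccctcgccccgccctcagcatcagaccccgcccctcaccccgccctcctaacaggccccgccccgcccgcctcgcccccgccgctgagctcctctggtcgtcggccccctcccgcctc
A4galt: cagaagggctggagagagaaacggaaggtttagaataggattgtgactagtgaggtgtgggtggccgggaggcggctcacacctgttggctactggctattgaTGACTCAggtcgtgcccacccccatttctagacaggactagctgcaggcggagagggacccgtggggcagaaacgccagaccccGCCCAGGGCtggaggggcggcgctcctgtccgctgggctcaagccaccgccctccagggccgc
S1pr3: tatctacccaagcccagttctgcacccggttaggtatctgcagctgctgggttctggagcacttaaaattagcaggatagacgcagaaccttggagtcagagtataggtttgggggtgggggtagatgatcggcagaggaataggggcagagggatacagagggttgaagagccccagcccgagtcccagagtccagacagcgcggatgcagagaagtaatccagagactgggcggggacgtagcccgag
The AP-2 letters began 98 and 34 bases before the start in Elovl4, 88 before it in Ugcg and 63 before it in A4galt. The AP-1 letters began 147 bases before the start of A4galt, and those reported for ZNF750 164 bases before that of B4galt5. Kdsr and S1pr3 held none of them, nor did Cerk, which fell. Of the 39 sphingolipid genes with a window, 6, 9 and 14 held the AP-1, AP-2 and ZNF750-reported letters (15.4%, 23.1% and 35.9%). A gene counted if any of its windows matched. These genes had 1 to 6 windows each, the most in Sgms2, and more windows give more room for a match. Among 10894 tested genes with a window the shares were 5.70%, 23.7% and 29.8%, and among all 27025 genes 7.82%, 15.4% and 22.7%. Median GC content was 61.2% in the sphingolipid windows, 59.6% in those of tested genes and 52.4% in all. A match describes letters only.

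Receptors of sphingosine 1-phosphate couple to G proteins and act on vessels, cell migration and lymphocyte exit from tissue. S1pr3 (ENSMUSG00000067586; chr13:51408639-51422797, plus strand, GRCm38) had control values of 269, 124 and 283 and knockout values of 1475, 1097 and 892. The groups were far apart, and S7 was here the lowest knockout. The gene rose (2.36 ± 0.34, adjusted p = 0.00903) and was called in every alternative (adjusted p = 0.00311 to 0.0475). S1pr1, the receptor of endothelium and lymphocytes, was at 29.2, 29.98 and 28.6 against 102, 118 and 674. The groups did not overlap, with S7 far above the rest, and the gene was not called (2.47 ± 0.65, adjusted p = 0.0674). Without S7 it was called, at a log2 fold change of 1.63 (adjusted p = 0.0317), as it was at a common library total (0.0359), with array weights (0.0382) and with the keratinocyte covariate (0.0425). The 6 endothelial markers summed to 1662, 1319 and 2208 in controls against 2795, 4000.4 and 6927. Only Flt1 of these 6 separated the groups, at 96.6, 73.7 and 38.7 against 1454, 2497 and 3046, and the other 5 overlapped, with Tek at 969.6, 588 and 1898 against 941, 474 and 534. The 6 leukocyte markers summed to 149.9, 109 and 1448 against 700.1, 2301 and 5942, 0 of them called. Neither list had a marker at 0 throughout a group, and their part in the S1pr1 values was not tested.

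S1pr2 had the highest level per kilobase of the 3 receptors in every control. Its values of 2087, 3106 and 1426 overlapped knockout values of 2098, 1170.3 and 1143 (-0.57 ± 0.34, adjusted p = 0.361). Of the sum of the 3 receptors per kilobase of exon, S1pr2 held 78.9%, 91.2% and 71.0% in controls against 42.0%, 34.0% and 25.4%. S1pr3 held 18.2%, 6.48% and 25.2% against 52.7%, 57.0% and 35.4%, and S1pr1 2.30% to 3.73% against 5.34% to 39.2%. S1pr3 had the largest share in S5 and S6 and S1pr1 in S7. These shares were chosen after the values were seen.

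Among genes for the sphingoid base, Kdsr alone was called. Kdsr (ENSMUSG00000009905; chr1:106720459-106759727, minus strand, GRCm38), the reductase of the second step, had control values of 652, 591 and 706 and knockout values of 1003, 1031 and 1117. The difference was small and the groups narrow (0.69 ± 0.14, adjusted p = 0.0342). The call was missed without any single library except S4 (adjusted p = 0.0705 to 0.124) and without the intensity trend (0.0686). Sptlc2, a catalytic subunit of serine palmitoyltransferase, which starts the pathway, was at 895, 992 and 866 against 1393, 1371 and 1193. Its groups did not overlap and it was not called (0.52 ± 0.14, adjusted p = 0.0799), but was at a common library total (0.0334) or with array weights (0.0270). Its partner Sptlc1 ranged over 328 to 473 and 352 to 418 (-0.10 ± 0.19, adjusted p = 0.789). Sptlc3, an alternative catalytic subunit, stayed below the filter, at 3.81, 0 and 5.89 against 0.981, 4.56 and 35.0.

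The ORMDL proteins restrain serine palmitoyltransferase, and 0 of their 3 genes were called, against 6.71% of all tested genes. Ormdl3, the highest of them per kilobase, was at 873, 1300.2 and 943 against 674, 629 and 983, with overlap (-0.45 ± 0.23, adjusted p = 0.292). Ormdl1 (0.16 ± 0.23, adjusted p = 0.722) and Ormdl2 (0.04 ± 0.27, adjusted p = 0.946) overlapped too, and 66.7% of the exon bases of Ormdl2 overlap Dnajc14 on the other strand.

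The 6 ceramide synthases differ in the length of the fatty acid they attach. Of the 5 tested, 0 were called, against 6.71% of all tested genes. Cers2, which uses very long chains, was at 1137, 1219 and 1051 in controls against 1388, 1333 and 1274, without overlap (0.23 ± 0.14, adjusted p = 0.364). Cers4 was at 497, 418 and 622 against 435, 705 and 1917, the high value being that of S7 (0.72 ± 0.49, adjusted p = 0.423). The other tested synthases overlapped between groups. Cers5, which uses palmitoyl chains, was at 621, 643 and 466 against 704, 622 and 605 (0.17 ± 0.18, adjusted p = 0.621). Cers6, of similar preference, was at 419, 387 and 891 against 653, 563 and 910.2 (0.40 ± 0.34, adjusted p = 0.532). Cers1 was at 88.9, 181 and 86.9 against 97.8, 57.8 and 94.5 (-0.42 ± 0.35, adjusted p = 0.510), and its reads are uncertain because 42.5% of its exon bases are shared with Gdf1 on the same strand.

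Cers3, the synthase for ultra-long chains in the epidermal barrier, stayed below the filter. Its values were 13.98, 6.25 and 45.4 in controls against 3.92, 1.82 and 12.7, so the group in which Elovl4 was high had the lower Cers3 mean, with overlap. Per kilobase, Cers2 held 42.8% to 53.5% of the 6 synthases and Cers5 21.1% to 29.0%, first and second in all 6 libraries. Cers3 was last in all 6, with 0.0826% to 2.29%. Cers1, Cers4 and Cers6 changed places between libraries.

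**Figure D4:**
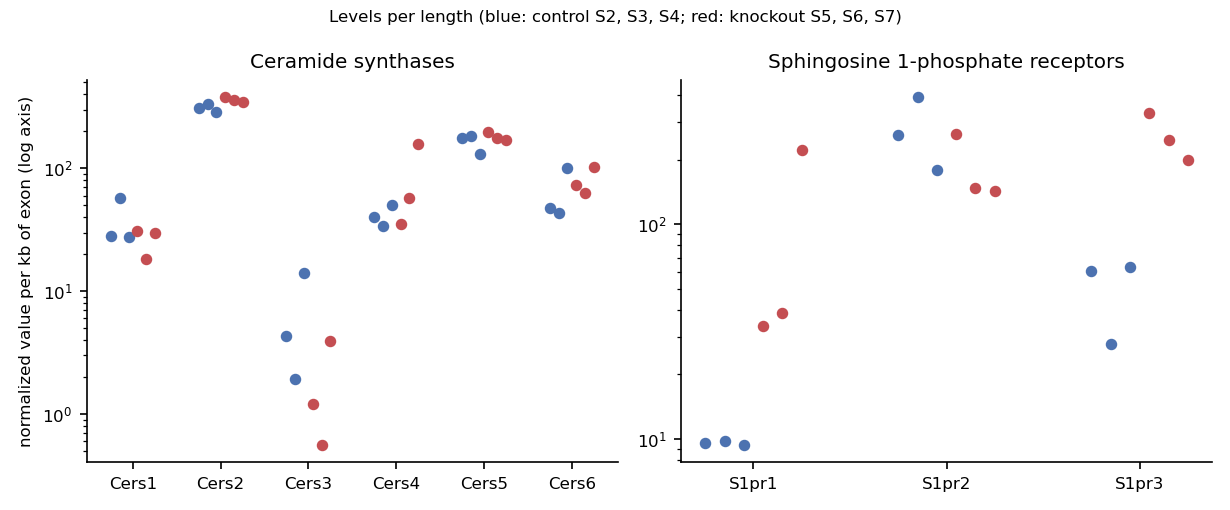
Normalized value per kilobase of exon (log axis) of the 6 ceramide synthases and the 3 sphingosine 1-phosphate receptors, 1 point per library, blue for control and red for knockout. Cers2 and Cers5 lead in every library and Cers3 is lowest, and S1pr1 and S1pr3 are higher in all knockouts than in any control.

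Genes that process acylceramide for the epidermal barrier were low. Abca12, the lipid transporter of lamellar granules, was at 22.9, 0 and 69.0 in controls against 14.7, 6.38 and 107 (0.30 ± 0.96, adjusted p = 0.883). Aloxe3, a lipoxygenase that acts on acylceramide, was at 21.6, 17.5 and 11.8 against 18.6, 16.4 and 10.3 (-0.10 ± 0.33, adjusted p = 0.884). Pnpla1, the transacylase that completes acylceramide, was at 7.78, 6.25 and 21.6 against 4.11, 19.9 and 16.9 (0.11 ± 0.46, adjusted p = 0.915). All 3 overlapped between groups, and none was called. A count of 3 reads corresponds to a value of 2.39 to 3.81, while Aloxe3 had 13 to 19 reads by library, Pnpla1 4 to 26 and Abca12 0 to 134. Abca12 was highest in S4 and S7, the libraries with the largest basal keratinocyte sums (35428 and 30807, against 5836 to 13192 in the others). The suprabasal sums were also largest there (1447 and 843, against 191 to 464). The part of keratinocytes in the Abca12 values was not tested.

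Cyp4f39, the omega-hydroxylase of ultra-long fatty acids, was at 2.54, 1.25 and 10.9 in controls against 17.7, 27.3 and 151. The groups did not overlap, S7 was highest, and it was not called (2.00 ± 0.68, adjusted p = 0.133). It passed the filter through the knockout libraries alone, so its being tested required a difference, and related Cyp4f genes may share its reads.

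Among genes for the breakdown of sphingomyelin and galactosylceramide, 0 of 5 were called, against 6.71% of all tested genes. Smpd3, which encodes a neutral sphingomyelinase, had the most negative log2 fold change of the 41 genes. It was at 599.8, 1361 and 2567 in controls against 372, 280.4 and 457, without overlap (-1.79 ± 0.48, adjusted p = 0.0718). It was called without S2, the lowest control (adjusted p = 0.0305), and with the keratinocyte covariate (0.0385). Galc, which removes galactose from galactosylceramide, was at 136, 136 and 143 against 177, 264 and 314, also without overlap (0.78 ± 0.24, adjusted p = 0.103). Psap, the saposin precursor that lysosomal hydrolases need, was the most abundant of the 44 genes per kilobase, at 17549 to 24975 in controls and 20013 to 25029 in knockouts (0.10 ± 0.25, adjusted p = 0.851). Smpd1 (0.12 ± 0.27, adjusted p = 0.836) and Smpd2 (-0.33 ± 0.21, adjusted p = 0.379) overlapped between groups.

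Ceramidases release sphingosine, and 0 of 5 were called, against 6.71% of all tested genes. Acer1, an alkaline ceramidase of epidermis and sebaceous gland, was at 5.08, 5.00 and 9.25 in controls against 18.6, 41.9 and 141, without overlap (1.95 ± 0.59, adjusted p = 0.101). It also passed the filter through the knockout libraries alone, and it was called without S5 (adjusted p = 0.0457). Acer2, of the Golgi, was at 69.9, 60.0 and 78.2 against 55.9, 163 and 341 (1.01 ± 0.55, adjusted p = 0.319), with S5 below the controls, and was called without S5 (0.0494). Acer3 was at 682, 402 and 901 against 318, 388 and 423 (-0.73 ± 0.29, adjusted p = 0.189), with a small overlap, and was called with the keratinocyte covariate (0.0296). The acid ceramidase gene Asah1 ranged over 1385 to 1899 in controls and 1957 to 2173 in knockouts (0.31 ± 0.17, adjusted p = 0.314), and Asah2, of neutral ceramidase, over 442 to 501 and 421 to 500.1 (-0.04 ± 0.15, adjusted p = 0.894).

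Of 5 genes for enzymes of sphingosine 1-phosphate, 0 were called, against 6.71% of all tested genes. Sgpl1, the lyase that degrades it irreversibly, was at 1752, 1824 and 1579 in controls against 2143, 2362 and 2757, without overlap (0.49 ± 0.16, adjusted p = 0.117), and was called at a common library total (0.0419). The other 4 overlapped. The kinase gene Sphk1 was at 1091, 1525 and 427 against 1185, 1742 and 881 (0.45 ± 0.46, adjusted p = 0.613), and Sphk2 gave 0.30 ± 0.29 (adjusted p = 0.591). The phosphatase gene Sgpp1 ranged over 2277 to 3199 and 1807 to 2581 (-0.24 ± 0.20, adjusted p = 0.534). Its relative Sgpp2 was at 19.2, 5.00 and 16.8 against 12.7, 20.1 and 60.3 (0.70 ± 0.52, adjusted p = 0.464), again with S7 highest.

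Much of the spread among knockouts came from S7. Of the 41 tested genes, 9 were at least 2 times as high in S7 as in both other knockouts (22.0%), against 5.20% of all tested genes. These were Cers4, Elovl4, Fa2h, Abca12, Cyp4f39, Acer1, Acer2, Sgpp2 and S1pr1. The same count was 0 in S5 and in S6, where all tested genes gave 1.34% and 1.82%. Set against both other controls, it was 1 in S2, 1 in S3 and 4 in S4 (9.76%). All tested genes gave 1.44%, 1.36% and 6.36% there. On the list of other pathway genes the count was 9 of 46 in S7 (19.6%), 4 of them elongase genes. S7 also had the highest sums of the 6 libraries for the sebocyte (11785), fat cell (8854), macrophage (15494), leukocyte (5942) and endothelial (6927) markers, whose part was not tested. The sums of the other marker lists were highest in S3, S4 or S6. The knockout values of Ugcg, S1pr3, Kdsr, Sgms2 and Cerk lay within 1.11-fold to 2.00-fold of each other.

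**Figure D5:**
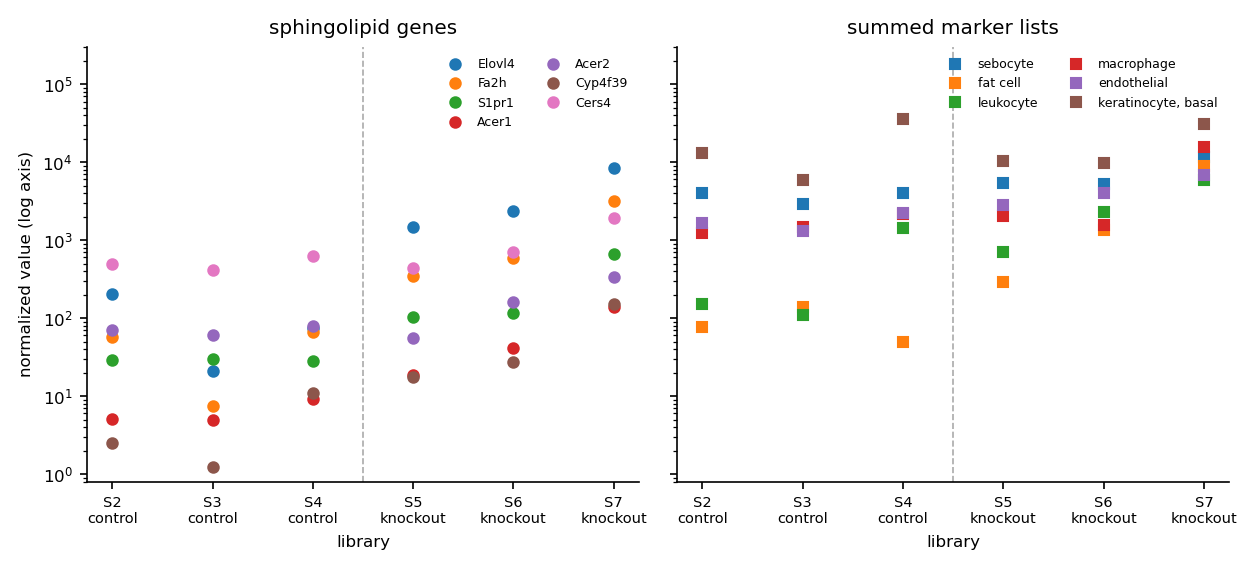
Normalized values (log axis) of 7 sphingolipid genes in each library on the left, and summed values of 6 cell type marker lists in the same libraries on the right, with a dashed line between controls and knockouts. The 7 genes are among the 9 picked for being at least 2 times as high in S7 as in both other knockouts. All 7, and all plotted lists except basal keratinocyte, are highest in S7. The fibroblast, Schwann cell, suprabasal keratinocyte, muscle and mast cell lists are not plotted, and none of them is highest in S7.

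The other genes of the pathway came from a list of 54 names, of which 52 were in the table and 46 were tested. Of these 7 rose and 0 fell (15.2%, against 6.71% of all tested genes), with a median log2 fold change of 0.22. In limma, 12 were higher and 3 lower at an unadjusted p under 0.05, which 23.2% of all tested genes reached. Beside the 5 of glycosphingolipid synthesis, 2 elongase genes rose. Elovl3, of sebaceous gland and brown fat, was at 3.81, 7.49 and 9.25 in controls against 124, 138 and 501, and was called in every alternative (3.76 ± 0.52, adjusted p = 0.00827). It is on the sebocyte list too and passed the filter through the knockout libraries alone. Elovl7 was at 24.1, 3.75 and 39.5 against 86.3, 130.3 and 319 (2.57 ± 0.61, adjusted p = 0.0497). Its call was missed without S2, S3, S6 or S7 (0.102 to 0.139), with either other pseudocount (0.0701 and 0.0508), without the filter (0.0551) and without the intensity trend (0.0656). Elovl6, which elongates palmitate, ranged over 383 to 833 in controls and had knockout values of 817, 1356 and 6790.4 (1.81 ± 0.72, adjusted p = 0.187).

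Of 9 tested genes for the breakdown of glycosphingolipids, 0 were called and 0 had an unadjusted p under 0.05 in limma. Of all tested genes, 6.71% were called and 23.2% had such a p. The log2 fold changes of the 9 genes were -0.55 to 0.35. Hexa, of a lysosomal hexosaminidase, was at 2981, 3359.8 and 1715 against 2158, 1725 and 1985 (-0.40 ± 0.26, adjusted p = 0.402). Among 4 lipid transfer proteins 0 were called, the ceramide transporter gene Cert1 ranging over 1063 to 1208 in controls and 1203 to 1428 in knockouts (0.20 ± 0.15, adjusted p = 0.470).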

How the data were processed

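RNA was taken from sorted mouse skin cells with a PureLink RNA mini kit and sequenced after NEBNext Ultra II preparation, per the labels' protocols. TopHat2 2.1.0 and Partek 9.0.20.0202 appear in the submitters' processing notes with no role. Build, annotation, strand setting and normalization method: not given in the sources used here. The authors deposited 1 table of normalized counts, treated as a signal. Of values up to 1000 reads, 78.3% to 80.5% per library were whole multiples of 1 step (tolerance 0.05 reads), so no count model was run. Read floors cover counting error only.

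Groups came from column names. limma 3.58.1 in R 4.3.3 (empirical Bayes, intensity trend, 2-sided) was fitted to 15935 genes at 1 per 1000000 of the total or more in at least 3 libraries, on log2(value + 9.15). The pseudocount is 0.5 per 1000000 of the mean total, and this scale understates fold changes of low genes. The script was tested on simulated data. Exon lengths and coordinates are from GENCODE M21 (GRCm38), matched by gene ID (23221 of 23934). RefSeq promoter windows matched 39 genes.

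The genes and lists were chosen with earlier results of these data known. Genes named with all values were those called, the 14 others with the largest log2 fold change, all ceramide synthases and barrier genes, and called genes of the other list. Further genes are examples, some chosen after their values were seen. A gene of the other list is not reported here. Marker sums not given above were 191 to 1447 in controls and 202 to 843 in knockouts (suprabasal keratinocyte), 48.3 to 474 and 1119 to 4550.0 (mast cell, Tpsab1 and Fcer1a at 0 in all controls), 490.1 to 6363 and 324 to 944 (muscle) and 6102 to 10555 and 4793 to 6961 (Schwann cell). Sums given above for S7 only were 48.8 to 137 in controls and 294 to 8854 in knockouts for fat cell markers. For macrophage markers they were 1248 to 2185 and 1555 to 15494.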

Additional observations from a re-analysis of the deposited data

How the results depend on the processing

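Of the log2 fold changes of single sphingolipid genes under the alternatives, 644 stayed on the same side of the threshold, 30 lost a call, 15 gained a call and 0 called genes changed direction. S1pr3, B4galt5, A4galt and Elovl3 were called in all 17 alternatives. Sphingolipid genes that rose numbered 8 at a common library total and 1 to 6 with 1 library left out. Those that fell numbered 1 at a common total, 0 without the intensity trend, 4 with the keratinocyte covariate, 0 without S3 and S7 and 0 to 2 with 1 library left out. Other pathway genes that rose numbered 3 without S3 and S7 and 3 to 7 with 1 library left out. Those that fell numbered 1 each with a filter at 5 per 1000000, a common total, quantile normalization, array weights or the covariate, and 0 to 2 with 1 library left out. Over all genes, 1057 rose at a common total, 1132 with array weights, 989 with the covariate, 257 without S3 and S7 and 234 to 697 with 1 library left out, while 865 fell with array weights, 699 with the covariate, 97 without S3 and S7 and 94 to 588 with 1 library left out. The causes were not tested. Cers3, Sptlc3 and Degs2 were below the filter, and their differences were not tested outside the fit without it.

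A replicate block by the numbers of the labels was not run, because column names do not carry them. A replicate block by the UB number in the column names, added after the data were seen, gave 5 sphingolipid genes higher and 3 lower, 7 other pathway genes higher and 2 lower, and 821 genes higher and 706 lower in all. Under it Kdsr and Cerk were not called, while Acer1, S1pr2 and Smpd3 were, and the 2 other genes that fell were Plpp1 and Plpp3. Deviations of same-numbered libraries correlated at 0.25 (S2 with S6) and -0.22 (S3 with S7). Those of other control and knockout pairs ranged from -0.31 (S2 with S7) to 0.41 (S4 with S7). With 3 libraries a group, such correlations cannot decide whether the numbers mark a pairing. The main fit has no block.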

Other observations

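Of 7 tested genes for the export and breakdown of sphingosine 1-phosphate, 0 were called, with 2 at an unadjusted p under 0.05 in limma. The shares of all tested genes were 6.71% and 23.2%. The receptor genes of this group were not tested. Plpp3, a surface phosphatase of lysophospholipids and sphingosine 1-phosphate, had control values of 28909.8, 40962 and 20465 and knockout values of 14162, 10725 and 11653. All knockouts lay below all controls (-1.26 ± 0.31, adjusted p = 0.0543). It was called lower with the stricter filter, a common library total, quantile normalization, array weights, the keratinocyte covariate or without S4 (adjusted p = 0.00648 to 0.0429). The exporter gene Spns2 was at 30.5, 46.2 and 60.6 against 54.9, 54.7 and 198, with overlap (0.82 ± 0.50, adjusted p = 0.368). S1pr4, a receptor of lymphoid cells, stayed below the filter at 5.08, 2.498 and 10.9 against 6.86, 47.4 and 109.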
